A study of Mus musculus with 931 samples.

Results

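At birth the 2 main hormone-making cells of the mouse pancreatic islet, the glucagon-making alpha cell and the insulin-making beta cell, were compared directly, one labelled batch of single cells being 1 sample. The comparison takes the alpha and beta cells collected at P0, the day of birth, whose labels give a single hormone, and leaves out beta cells of a batch enriched for proliferating cells. It holds 117 cells, 46 alpha and 71 beta, of 866 unselected single-hormone cells and 917 cells in the count table of the whole study, which followed both cell types from E17.5 to P60. Alpha cells came from Gcg-Cre; Rosa-RFP mice whose mixed strain drew on C3H, CBA/J and C57BL/6, in which a Cre recombinase driven by the glucagon gene switches on a red fluorescent protein. Beta cells came from Ins1-RFP mice of mixed C3H and C57BL/6 strain, in which the red protein marks cells that use the Ins1 gene. The pancreas was the tissue for all of them. Alpha batch 1 was FACS-sorted and alpha batches 2 and 3 were picked by hand, with 21, 11 and 14 cells. Beta batches 1 and 2 were FACS-sorted and beta batch 4 was picked by hand, with 33, 29 and 9 cells. Cell type therefore goes with mouse strain and with reporter in every batch, and these cannot be told apart. The labels name no animals, so p-values measure the spread between batches, which may be technical.

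Islet cells keep blood glucose within bounds by opposing hormones: glucagon from alpha cells makes the liver release glucose, and insulin from beta cells makes tissues take it up. Both cell types arise from endocrine progenitors, and the transcription factors PDX1 and NKX6-1 are known to hold beta cells to their fate. Both hormones are cut from a larger precursor inside secretory granules, by PCSK2 for glucagon and by PCSK1 together with PCSK2 for insulin. Newborn beta cells are known to be immature in their response to glucose.

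Full-length cDNA of each cell was sequenced by Smart-seq2, which carries no molecular identifiers, so counting error is understated by any interval built on reads. Alpha cells held 745922 to 1313229 gene reads with a median of 1056072, and beta cells 814978 to 1765972 with a median of 1267184. Median genes detected were 7940.5 in alpha cells and 8083 in beta cells, and the median share of reads on ERCC spike-in RNA was 4.26% in alpha cells and 2.44% in beta cells. Summed batches held 12021760 to 21002799 reads in alpha and 9657092 to 46775054 in beta. Levels below are CPM, the counts of a sum scaled by TMM to a common library size, and values per cell are CPM of that cell's own total. The first principal component of the 6 P0 batches, with 40.7% of the variance, put alpha batches at 80.1 to 131.7 and beta batches at -141.1 to -82.2. Xist, the RNA that silences an X chromosome in females, was at 10 CPM or more in 0 of 46 alpha cells and in 29 of 71 beta cells. The 0 would allow a share of up to 6.52% in alpha cells only if cells within a batch were independent. These 29 were 22 cells of beta batch 1, 1 of batch 2 and 6 of batch 4, and the part of the sexes in the results was not tested.

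All 9 beta markers were lower in alpha cells, and 7 of 9 alpha markers were higher, where 4.96% of all genes tested passed in either direction. Gcg, Ins1 and Ins2 are among these markers and chose the cells through hormone label or reporter, so those 3 were fixed by the selection. Markers of other pancreatic cells were low: summed over 10 acinar genes, alpha batches held 15.8 to 26.9 CPM and beta batches 1.16 to 6.31 CPM. A set of 6 endothelial genes summed to at most 6.12 CPM in alpha and 3.99 CPM in beta batches, and 6 immune genes to at most 2.52 CPM in alpha and 4.33 CPM in beta batches. The 7 duct genes summed to 45.7 to 88.5 CPM in alpha and 106.2 to 301.7 CPM in beta batches, and none of them passed the test. Of 6 mesenchymal genes, Col1a2, a collagen chain, passed, with 21.5, 18.3 and 47.5 CPM in alpha batches and 0.0617, 0.107 and 1.24 CPM in beta batches. The Col1a2 call was lost without alpha batch 1 or 3 and without beta batch 1, 2 or 4, with adjusted p from 0.0572 to 0.141. Its partner chain Col1a1 stayed at or under 0.197 CPM in alpha batches and 1.55 CPM in beta batches.

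Of 18537 genes tested, 920 (4.96%) passed an adjusted p of 0.05 in edgeR's quasi-likelihood test with Benjamini-Hochberg adjustment. They were 396 genes higher in alpha cells (2.14%) and 524 lower (2.83%), of which 328 and 446 differed more than 2-fold. Alpha and beta batches did not overlap for 886 of the 920, against 21.0% of all genes tested. The median log2 difference over all genes tested was 0.0094, a value that the scaling itself sets near 0. Without beta batch 4 the genes higher in alpha cells fell to 211 and those lower to 458. With the 29 Xist-positive beta cells left out, 462 genes were higher and 528 lower.

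The promoters of 3 abundant hormone genes that differ between the 2 cell types are shown for the short sequences that islet factors read. Each line below is the 250 bases before the RefSeq start site, 5′ to 3′ on the gene's strand, in build GRCm38.p6. Gcg lies on the minus strand at chr2:62483654-62483903, Ins1 on the plus strand at chr19:52264047-52264296 and Iapp on the plus strand at chr6:142298175-142298424. Capitals mark TAAT or its complement ATTA, the core that homeodomain proteins such as PAX6 and PDX1 read, and CAGATG or its complement CATCTG, an E-box of the kind NEUROD1 binds.
Gcg promoter: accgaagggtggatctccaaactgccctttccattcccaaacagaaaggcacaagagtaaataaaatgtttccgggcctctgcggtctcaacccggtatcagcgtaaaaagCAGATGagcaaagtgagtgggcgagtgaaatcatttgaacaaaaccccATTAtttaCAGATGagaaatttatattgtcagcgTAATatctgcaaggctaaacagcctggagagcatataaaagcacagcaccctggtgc
Ins1 promoter: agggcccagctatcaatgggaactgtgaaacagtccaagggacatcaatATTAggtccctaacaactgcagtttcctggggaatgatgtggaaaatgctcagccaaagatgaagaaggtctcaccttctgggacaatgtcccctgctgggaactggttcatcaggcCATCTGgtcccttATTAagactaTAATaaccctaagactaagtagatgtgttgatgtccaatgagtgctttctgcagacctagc
Iapp promoter: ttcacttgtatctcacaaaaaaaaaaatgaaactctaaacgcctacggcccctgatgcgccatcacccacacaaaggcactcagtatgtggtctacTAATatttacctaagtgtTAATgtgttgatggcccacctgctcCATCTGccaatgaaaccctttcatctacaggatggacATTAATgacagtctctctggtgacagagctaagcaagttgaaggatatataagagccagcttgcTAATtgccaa
On both strands TAAT was found 2 times in Gcg, 3 times in Ins1 and 5 times in Iapp, with 1 pair of the Iapp matches overlapping, and 54.9% of all 32851 RefSeq mouse promoter windows of this length hold it. CAGATG was found 2 times in Gcg and 1 time each in Ins1 and Iapp, and 14.4% of windows hold it. TGCTGA or its complement TCAGCA, part of a MAF site, was found in none of the 3 windows and in 16.1% of all. These are matches of letters only.

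The hormones separated the cell types by the choice of the cells, so their levels are a description. Gcg, which encodes glucagon, had 109950, 156150 and 126530 CPM in alpha batches and 5.30, 3.11 and 78.5 CPM in beta batches. Every alpha batch was far above every beta batch, and beta batch 4 was the highest of the beta batches. Ins1 and Ins2, the 2 insulin genes of the mouse, are close copies, so some reads may be split between them. In 1 cell of beta batch 1, however, Ins1 was at 169800 CPM with Ins2 at 467 CPM. Ins2 had 342, 25.6 and 43.7 CPM in alpha batches and 192520, 187030 and 109380 CPM in beta batches. Ins1 had 242, 14.9 and 49.0 CPM in alpha batches and 132770, 137580 and 82333 CPM in beta batches. Per kilobase of gene model, Gcg averaged 120290 CPM in alpha cells, and Ins2 averaged 279540 CPM and Ins1 115710 CPM in beta cells.

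Iapp, the amyloid peptide that beta cells release with insulin, was not named in the labels that chose the cells. It had 2019, 3265 and 985 CPM in alpha batches, against 33518, 34748 and 21282 CPM in beta batches. The groups did not overlap, and the log2 difference was -3.81 ± 0.52 (SE; edgeR adjusted p = 3.54e-06). No alpha cell was without Iapp: the 46 cells ranged from 110.2 to 17840 CPM with a median of 1380 CPM, and the 71 beta cells from 14336 to 58044 CPM with a median of 35061 CPM. Iapp in the highest alpha cell thus lay within the range of beta cells.

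Ppy, Pyy and Ghrl, hormones of other islet cells, were higher in alpha cells at birth, and Sst was not called. Ppy, the pancreatic polypeptide of PP cells, had 983, 2983 and 5715 CPM in alpha batches, against 32.7, 33.7 and 13.4 CPM in beta batches. All 3 alpha batches were above all 3 beta batches, with a log2 difference of 6.65 ± 1.60 (SE; edgeR adjusted p = 0.00768). Pyy, peptide YY, a gut and islet peptide of the same family, had 3773, 9926 and 7239 CPM in alpha batches, against 99.5, 528 and 7.35 CPM in beta batches. Its log2 difference was 4.74 ± 1.25 (SE; edgeR adjusted p = 0.0170), and beta batch 2 stood above the other beta batches. Ghrl, ghrelin, the hormone of the fetal epsilon cell, had 85.0, 242 and 73.6 CPM in alpha batches, against 0.226, 0 and 0.0774 CPM in beta batches (log2 difference 9.34 ± 2.08, SE; edgeR adjusted p = 0.00422). The Ghrl level of each alpha batch rested largely on 1 cell. Single cells also weighed on Ppy: the highest cells of alpha batches 1, 2 and 3 were at 10226, 24166 and 61627 CPM. The batch medians were 331.7, 1599 and 3527 CPM. In alpha batch 3 the cell with the most Ppy also had the most Pyy, 61294 CPM, against a batch median of 5804 CPM. Sst, the somatostatin of delta cells, had 63.1, 14.7 and 3.64 CPM in alpha batches and 11.0, 3.83 and 27.9 CPM in beta batches, and the groups overlapped (edgeR adjusted p = 0.847). Since a cell with a second hormone label was left out of both groups, the values describe cells that kept a single-hormone label. How far that choice limited these hormones was not tested. The Ppy call was lost without beta batch 4 (log2 6.17, adjusted p = 0.0619), and the Pyy call without beta batch 1 (log2 4.40, adjusted p = 0.0944) and without beta batch 4 (log2 4.01, adjusted p = 0.0846). The 6 P0 batches alone also lost the Pyy call (adjusted p = 0.143). With the 5 alpha and 4 beta cells of several hormones put back, 2 of the 8 hormone genes were higher in alpha cells rather than 4.

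The cells that carried these hormones were not the same share for each. Pyy reached 1000 CPM in 44 of 46 alpha cells and in 5 of 71 beta cells, all 5 in beta batch 2. Ppy reached 1000 CPM in 0 of 71 beta cells, which would allow up to 4.23% only if cells within a batch were independent. It reached that level in 24 of 46 alpha cells. By batch these were 6 of 21, 8 of 11 and 10 of 14 alpha cells, with batch medians of 331.7, 1599 and 3527 CPM. The FACS-sorted alpha batch was the lowest of the 3. Ghrl was read in 20 of 46 alpha cells and 3 of 71 beta cells, but it reached 100 CPM in 7 alpha cells and in no beta cell. It reached 1000 CPM in 1 cell of each alpha batch, at 2112, 3040 and 1182 CPM. The alpha batch medians of Ghrl were 0, 0.920 and 1.90 CPM. Of the markers of those cell types beside the hormones, Etv1 (shared by the delta and epsilon lists) passed and Hhex, Rbp4 and Anpep did not, while Ghsr was at 0 in both cell types and Lepr at or under 0.0615 CPM in alpha and 0.464 CPM in beta batches. The part of other endocrine cells in the hormone levels was not tested.

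**Figure D1:**
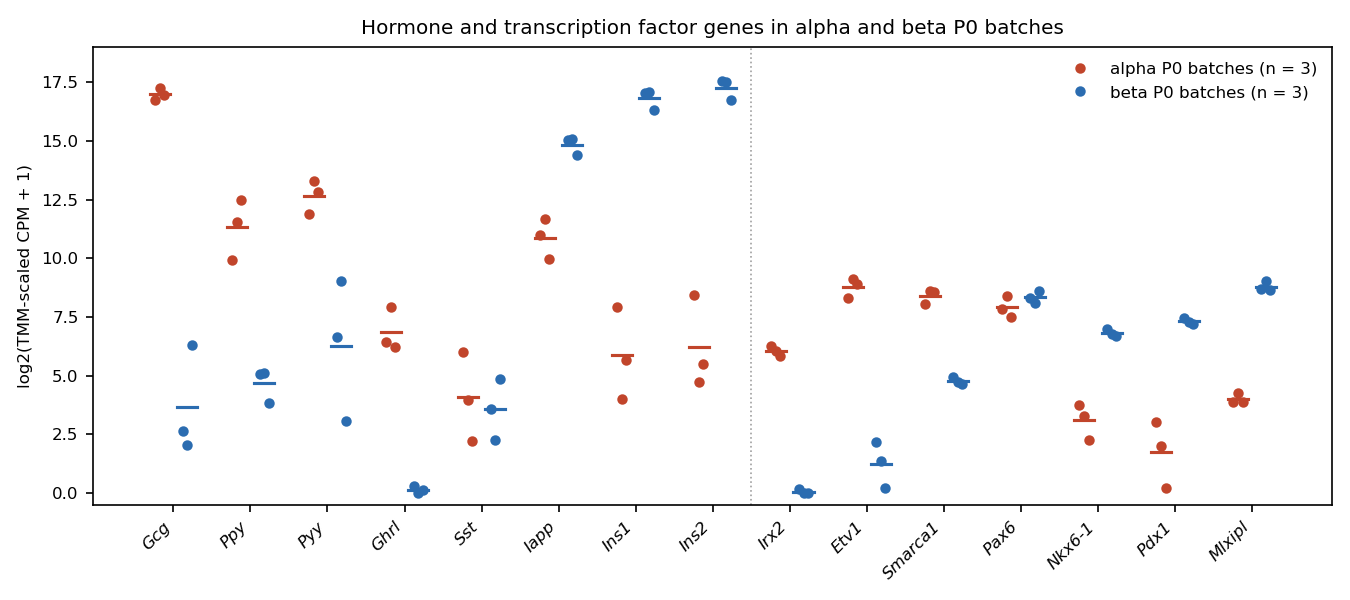
Batch levels of 8 hormone genes (left of the dotted line) and 7 genes of transcription factors or, for Smarca1, a chromatin remodeller (right of it) as log2(TMM-scaled CPM + 1), with alpha P0 batches left and beta P0 batches right for each gene, bars marking the mean of 3 batches. Gcg, Ppy, Pyy, Ghrl, Irx2, Etv1 and Smarca1 sit higher in alpha batches, Iapp, Ins1, Ins2, Nkx6-1, Pdx1 and Mlxipl higher in beta batches, and Sst and Pax6 overlap.

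**Figure D2:**
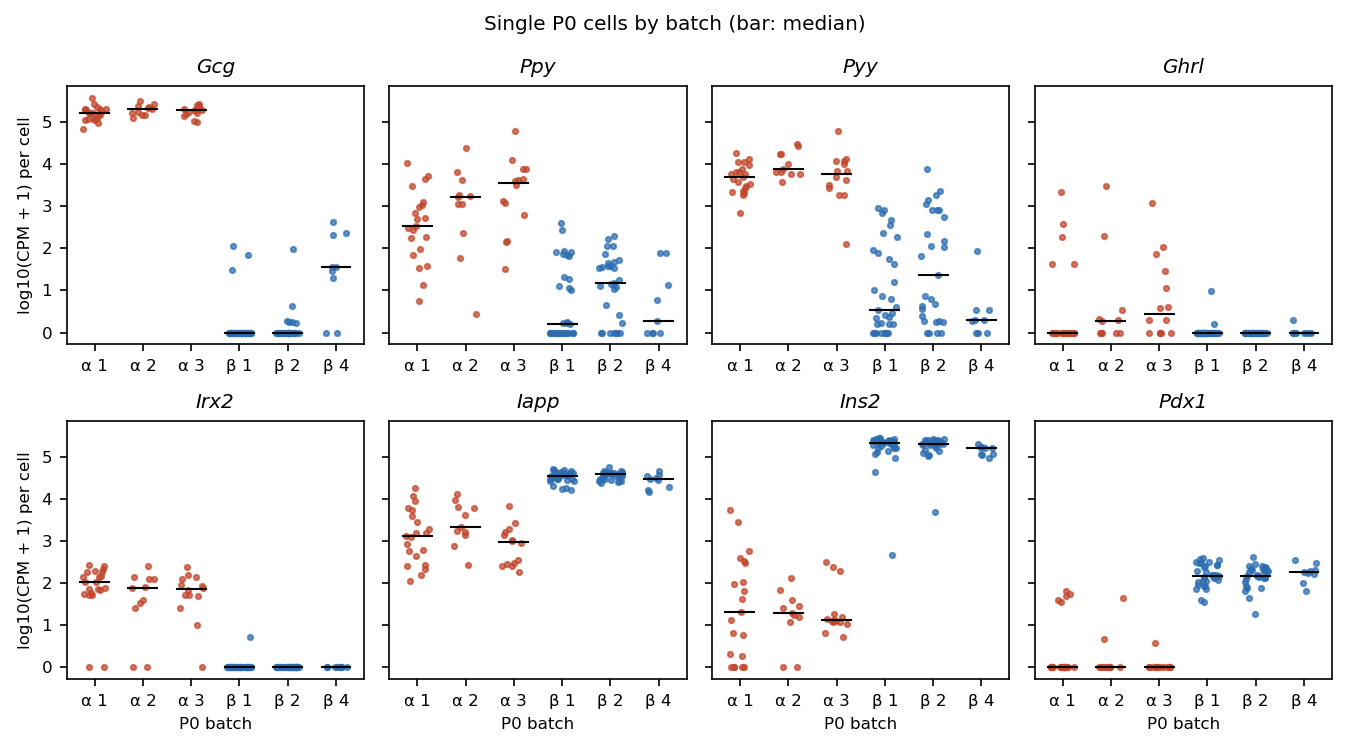
Levels per cell as log10(CPM + 1) in each P0 batch, alpha batches (21, 11 and 14 cells) left of beta batches (33, 29 and 9 cells), with a bar at the median. Gcg, Irx2, Ins2 and Pdx1 divide the cell types almost without overlap, and Ppy and Ghrl spread widely among alpha cells.

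Transcription factors of the alpha program, listed together with the chromatin remodeller Smarca1, were higher in alpha cells in 8 of 16 tested genes and lower in none. The median log2 difference of the list was 1.34 against 0.0094 over all genes. Irx2, an Iroquois homeodomain factor of alpha cells, had 75.1, 65.3 and 56.5 CPM in alpha batches, against 0.123, 0 and 0 CPM in beta batches (edgeR adjusted p = 2.25e-06). Its relative Irx1 was low, at 3.97, 0.723 and 3.18 CPM in alpha batches and without a read in beta batches, at least 86.5-fold higher in alpha cells counting 3 reads over all beta batches as the floor (edgeR adjusted p = 0.00170). Such fold bounds, here and below, count reads as independent. Without molecular identifiers, and with few cells and batches, they may be too large and are not firm minima. Reads of Irx2 were found in 41 of 46 alpha cells and 1 of 71 beta cells, and both factors were all but absent from beta batches. Etv1, an ETS factor, was 8.30 ± 0.88 higher on the log2 scale (SE), with 313, 548 and 477 CPM in alpha batches and 3.53, 1.53 and 0.155 CPM in beta batches (edgeR adjusted p = 2.11e-08).

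Smarca1, the ATPase of a chromatin remodelling complex, had 261, 384 and 376 CPM in alpha batches, against 29.8, 25.1 and 23.8 CPM in beta batches (log2 difference 3.60 ± 0.47, SE; edgeR adjusted p = 1.37e-06). Isl1, a LIM homeodomain factor of all islet cells, had 246, 375 and 277 CPM in alpha batches, against 164, 96.6 and 79.6 CPM in beta batches (log2 difference 1.43 ± 0.26, SE; edgeR adjusted p = 0.000420). Both genes were read in every beta batch, at lower levels. Pou3f4, also called BRN4, an early alpha factor, had 24.1, 27.5 and 9.25 CPM in alpha batches, against 1.01, 0.482 and 3.10 CPM in beta batches (log2 difference 3.77 ± 0.88, SE; edgeR adjusted p = 0.00560), a call lost without beta batch 2 (log2 3.33, adjusted p = 0.0524). In a fit of the 6 P0 batches alone the calls of Irx1, Isl1 and Pou3f4 were lost, with adjusted p of 0.0814, 0.0962 and 0.0729. Foxp1, Foxp2, Foxp4, Meis1, Meis2, Fev and Tshz1 did not pass, and Irx3 and Irx5 were too low to test.

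Transcription factors of the beta program were lower in alpha cells in 6 of 12 tested genes and higher in none, with a median log2 difference of -4.23, or -3.77 over the 11 genes above the floor with genes at 0 set to their bound. By limma on log2(CPM + 1) means over cells, 5 were lower and 1 higher, with a median of -0.47 on that scale. Pdx1, the homeodomain master factor of beta cells, had 7.20, 3.02 and 0.140 CPM in alpha batches, against 172, 156 and 145 CPM in beta batches (log2 difference -5.48 ± 1.01, SE; edgeR adjusted p = 0.000393). Pdx1 was read in 8 of 46 alpha cells and in all 71 beta cells. Nkx6-1 had 12.4, 8.55 and 3.78 CPM in alpha batches, against 126, 108 and 101 CPM in beta batches (log2 difference -3.77 ± 0.40, SE; edgeR adjusted p = 2.17e-08). Nkx6-1 reads were nevertheless found in 23 of 46 alpha cells. Mlxipl, the glucose-sensing factor ChREBP, had 13.8, 18.2 and 13.6 CPM in alpha batches, against 414, 523 and 395 CPM in beta batches (log2 difference -4.81 ± 0.38, SE; edgeR adjusted p = 5.14e-11). For these 3 genes every alpha batch lay below every beta batch.

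Ovol2, a zinc finger factor of epithelial cells, had no read in alpha batches and 25.6, 9.37 and 9.91 CPM in beta batches, at least 345-fold lower in alpha cells (edgeR adjusted p = 1.87e-07). Mnx1, a homeodomain factor needed for beta cells, named here after its values were seen, had 0.0308, 0.0657 and 0 CPM in alpha batches and 4.69, 7.34 and 7.35 CPM in beta batches (edgeR adjusted p = 2.39e-05). Mafa, the factor of mature beta cells, was barely detectable at birth in either type, with no read in alpha batches and 0.164, 0.803 and 0.155 CPM in beta batches. It was at least 8.62-fold lower in alpha cells (edgeR adjusted p = 0.0225), a call lost without alpha batch 1, 2 or 3 or beta batch 2, where the adjusted p ran from 0.0753 to 0.0889. Reads of Mafa were found in 0 of 46 alpha cells and 15 of 71 beta cells.

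Of 21 other factors common to islet cells, 3 were lower in alpha cells and none was higher, with a median log2 difference of 0.11. Isl1, counted above with the alpha program, is not among them. DESeq2 gave 3 higher and 4 lower, and limma on means over cells 3 higher and 2 lower. Glis3, a regulator of insulin transcription, had 8.30, 0.657 and 1.12 CPM in alpha batches, against 66.4, 33.8 and 60.2 CPM in beta batches (log2 difference -3.88 ± 0.73, SE; edgeR adjusted p = 0.000494). Insm1, a zinc finger factor of endocrine differentiation, had 20.1, 12.9 and 8.78 CPM in alpha batches, against 40.4, 60.7 and 29.3 CPM in beta batches (log2 difference -1.55 ± 0.33, SE; edgeR adjusted p = 0.00229). Neurod1 had 198, 154 and 143 CPM in alpha batches, against 294, 342 and 261 CPM in beta batches (log2 difference -0.82 ± 0.20, SE; edgeR adjusted p = 0.00884), a call lost without beta batch 2 (log2 -0.73, adjusted p = 0.0520). With the 6 P0 batches alone none of the 3 passed (adjusted p = 0.0577 for Glis3, 0.0803 for Insm1 and 0.0756 for Neurod1), and none did with FACS-sorted batches alone. Pax6 and Nkx2-2 overlapped between the cell types, at 247 ± 76.3 and 39.1 ± 18.5 CPM in alpha cells and 323 ± 57.4 and 45.5 ± 5.39 CPM in beta cells (SD, n = 3 each). Among 17 progenitor genes 1 was higher, Runx1t1, a co-repressor, a share of 5.88% where 4.96% of all genes tested passed. Runx1t1 averaged 146 ± 57.7 CPM in alpha cells and 19.1 ± 7.53 CPM in beta cells (SD, n = 3 each; log2 difference 2.94 ± 0.37, SE; edgeR adjusted p = 8.54e-07).

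The enzymes that cut prohormones differed in kind. Of 15 processing genes tested, 3 were higher and 2 lower in alpha cells. Pcsk1, prohormone convertase 1/3, had 1.32, 5.32 and 9.71 CPM in alpha batches, against 916, 492 and 906 CPM in beta batches (log2 difference -7.23 ± 1.18, SE; edgeR adjusted p = 7.02e-05). It was read in 14 of 46 alpha cells, at most at 91.7 CPM, and in every beta cell, at 122 CPM or more. Pcsk2, convertase 2, was expressed in all cells of both types, with 2440, 3428 and 3565 CPM in alpha batches and 1861, 1966 and 2066 CPM in beta batches (log2 difference 0.65 ± 0.15, SE; edgeR adjusted p = 0.00441). Pcsk1n, which encodes proSAAS, an inhibitor of convertase 1/3, had 1914, 2100 and 1742 CPM in alpha batches, against 458, 542 and 312 CPM in beta batches (log2 difference 2.21 ± 0.22, SE; edgeR adjusted p = 5.48e-09). Both were higher in each alpha batch than in any beta batch. Pam, the enzyme that amidates peptide ends, had 738, 1210 and 1138 CPM in alpha batches, against 521, 404 and 400 CPM in beta batches (log2 difference 1.19 ± 0.24, SE; edgeR adjusted p = 0.00111). Ero1lb, the oxidase that drives disulfide formation in proinsulin, had 20.9, 22.9 and 31.7 CPM in alpha batches, against 663, 448 and 787 CPM in beta batches (log2 difference -4.70 ± 0.34, SE; edgeR adjusted p = 9.82e-12). The calls of Pcsk2 (log2 0.54, adjusted p = 0.302) and Pam (log2 1.10, adjusted p = 0.0940) were lost in a fit of the 6 P0 batches alone.

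Granule proteins were lower in alpha cells in 5 of 12 genes tested and higher in 1. Chga, chromogranin A, had 1829, 2006 and 2244 CPM in alpha batches, against 5816, 6334 and 3812 CPM in beta batches (log2 difference -1.38 ± 0.21, SE; edgeR adjusted p = 1.59e-05). Chgb, Scg2 and Scg3, other granins, were lower too, by log2 differences of -1.04 ± 0.20, -1.94 ± 0.33 and -1.42 ± 0.21 (SE), the second of them named after its values were seen. With the 6 P0 batches alone the Chga call was lost (adjusted p = 0.0793). Slc30a8, the transporter that fills insulin granules with zinc, had 303, 498 and 619 CPM in alpha batches, against 1483, 1153 and 1274 CPM in beta batches (log2 difference -1.50 ± 0.21, SE; edgeR adjusted p = 3.28e-06). Resp18, an endocrine protein of the secretory route, went the other way, with 740, 990 and 873 CPM in alpha batches and 60.3, 101 and 46.5 CPM in beta batches (log2 difference 3.71 ± 0.34, SE; edgeR adjusted p = 8.83e-10).

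Genes of protein folding in the endoplasmic reticulum were lower in alpha cells in 16 of 22 tested genes and higher in none, the largest share of any list here outside the hormones and cell type markers, with a median log2 difference of -1.18. Creld2, a chaperone of the stress response of this compartment, had 28.9, 22.0 and 37.1 CPM in alpha batches, against 387, 128 and 252 CPM in beta batches (log2 difference -3.11 ± 0.41, SE; edgeR adjusted p = 1.76e-06). Dnajc3, a co-chaperone, had 81.2, 69.9 and 74.4 CPM in alpha batches, against 420, 252 and 325 CPM in beta batches (log2 difference -2.12 ± 0.21, SE; edgeR adjusted p = 8.06e-09). P4hb, the founding protein disulfide isomerase, had 343, 331 and 387 CPM in alpha batches, against 1167, 825 and 1016 CPM in beta batches (log2 difference -1.52 ± 0.15, SE; edgeR adjusted p = 4.44e-09). For all 3 every alpha batch lay below every beta batch.

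Other members are named after their values were seen. Hspa5, the main chaperone BiP, had 560, 714 and 642 CPM in alpha batches, against 2166, 1140 and 1672 CPM in beta batches (log2 difference -1.36 ± 0.25, SE; edgeR adjusted p = 0.000308). Sdf2l1, Hyou1, Manf, Hsp90b1, Pdia3, Pdia4, Pdia6, Dnajb11, Sec61b, Atf6, Calr and Canx also passed, by log2 differences between -2.92 and -0.71. The calls of Atf6, Calr, Canx and Dnajb11 were lost without 1 batch or another, with adjusted p from 0.0542 to 0.268. The 6 that did not pass were Xbp1, Atf4, Ddit3, Herpud1, Dnajb9 and Trib3, which include transcription factors of the stress response. Xbp1 had 207, 399 and 319 CPM in alpha batches and 471, 276 and 345 CPM in beta batches (log2 difference -0.23 ± 0.20, SE; edgeR adjusted p = 0.626). Beta batch 1 was the highest of the 6 batches for Creld2, Dnajc3, P4hb and Hspa5. Leaving out any 1 batch left 12 to 15 genes lower, FACS-sorted batches alone gave 8, hand-picked batches alone 12, and the 6 P0 batches alone 4.

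**Figure D3:**
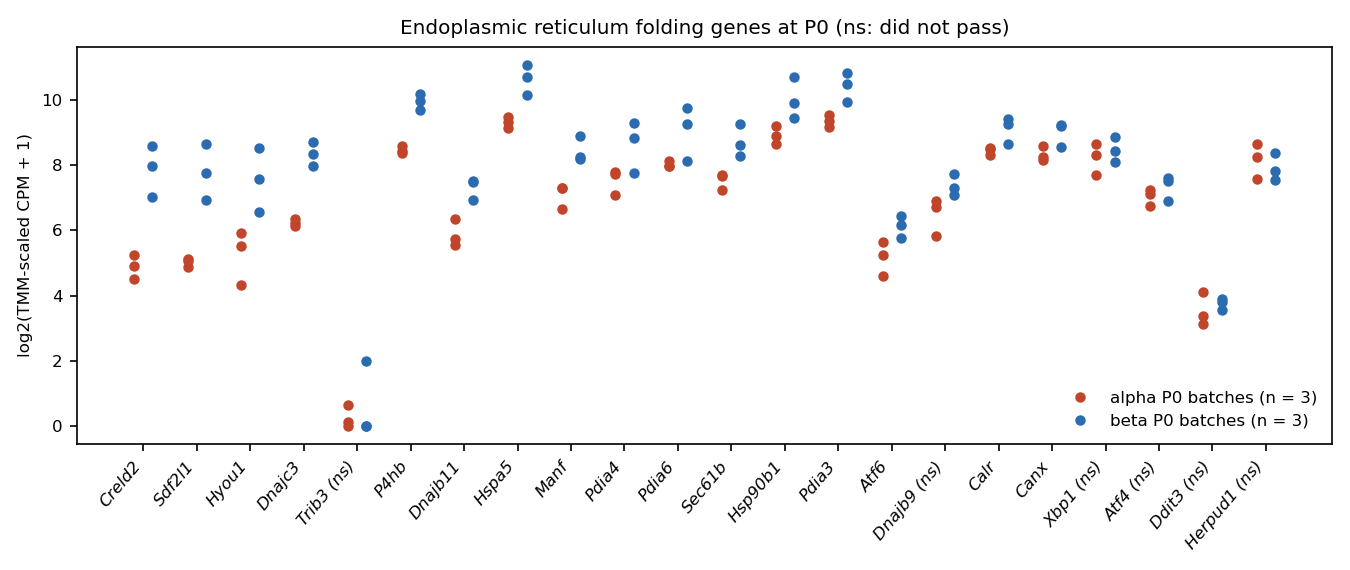
Batch levels of 22 endoplasmic reticulum folding genes as log2(TMM-scaled CPM + 1), alpha P0 batches left and beta P0 batches right for each gene, ordered by the log2 difference from lowest to highest. Alpha batches lie below beta batches for Creld2, Sdf2l1, Hyou1 and Dnajc3 without overlap, while Xbp1, Atf4, Ddit3 and Herpud1 overlap.

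Of 31 genes of glucose use tested, 4 were higher and 6 lower in alpha cells. Slc2a2, the glucose transporter GLUT2, had 1.05, 0 and 0.0467 CPM in alpha batches, against 614, 469 and 532 CPM in beta batches (log2 difference -10.21 ± 1.40, SE; edgeR adjusted p = 4.62e-06), and was read in 2 of 46 alpha cells and all 71 beta cells. G6pc2, the islet glucose-6-phosphatase, had 29.4, 19.5 and 58.2 CPM in alpha batches, against 1754, 2112 and 947 CPM in beta batches (log2 difference -5.50 ± 0.72, SE; edgeR adjusted p = 1.34e-06). Both were lower in each alpha batch than in any beta batch. Pcx, pyruvate carboxylase, had 3.88, 10.7 and 11.9 CPM in alpha batches, against 68.0, 82.9 and 125 CPM in beta batches (log2 difference -3.59 ± 0.55, SE; edgeR adjusted p = 2.01e-05). Mpc1 and Pkm were lower too, but each call was lost without alpha batch 1 or 2 and without beta batch 1 or 2 (adjusted p from 0.0786 to 0.184).

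Glud1, glutamate dehydrogenase, had 358, 463 and 454 CPM in alpha batches, against 125, 108 and 173 CPM in beta batches (log2 difference 1.64 ± 0.21, SE; edgeR adjusted p = 8.54e-07). Fbp1, a gluconeogenic phosphatase, had 70.2, 49.7 and 71.5 CPM in alpha batches, against 0, 2.54 and 0 CPM in beta batches (log2 difference 6.16 ± 1.51, SE; edgeR adjusted p = 0.0119), a call lost without beta batch 1 (log2 5.56, adjusted p = 0.0521) and without beta batch 4 (log2 5.56, adjusted p = 0.0687). Hk1, a hexokinase of high glucose affinity, named after its values were seen, had 2.77, 3.88 and 3.46 CPM in alpha batches and no read in beta batches (edgeR adjusted p = 0.0151), a call lost without any 1 of the beta batches (adjusted p from 0.0580 to 0.0651). Tpi1, a glycolytic enzyme, was higher too (log2 difference 0.70), a call lost without alpha batch 2 or 3 and without beta batch 2 or 4 (adjusted p from 0.0597 to 0.293), and the log2 difference was 0.10 in FACS-sorted batches. The 6 P0 batches alone lost the calls of Fbp1, Hk1, Tpi1, Mpc1 and Pkm, with adjusted p from 0.0656 to 0.328. Of 26 amino acid transporter genes, 1 was higher and 2 lower, Slc38a1 and Slc6a6, a share of 11.5% where 4.96% of all genes tested passed. The Slc38a1 call was lost without alpha batch 1 or 3 or beta batch 4 (edgeR adjusted p from 0.0928 to 0.131). It was also lost with multi-hormone cells added (log2 -2.40, adjusted p = 0.703). The Slc6a6 call was lost with the 6 P0 batches alone (adjusted p = 0.174). Slc38a5, a glutamine transporter of alpha cells, had 1394, 771 and 1115 CPM in alpha batches, against 285, 287 and 263 CPM in beta batches, without overlap, and did not pass (log2 difference 1.97 ± 0.68, SE; edgeR adjusted p = 0.0913), although it did in a fit of the 6 P0 batches alone (log2 2.05, adjusted p = 0.0115).

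Receptors were lower in alpha cells in 8 of 46 genes tested and higher in 2. Glp1r, the receptor of the gut hormone GLP-1, had 0, 0 and 0.560 CPM in alpha batches, against 66.0, 65.7 and 58.1 CPM in beta batches (edgeR adjusted p = 1.87e-07). Gcgr, the glucagon receptor, had 0, 1.71 and 0 CPM in alpha batches, against 83.9, 68.0 and 94.6 CPM in beta batches (log2 difference -7.33 ± 1.25, SE; edgeR adjusted p = 0.000316). P2ry1, a purine receptor, had 0, 1.18 and 0 CPM in alpha batches, against 263, 176 and 302 CPM in beta batches (log2 difference -9.73 ± 1.40, SE; edgeR adjusted p = 1.25e-05). The 3 receptors were at or near 0 in alpha batches. Gipr, the receptor of the other incretin, was in both cell types, with 33.4, 49.0 and 35.7 CPM in alpha batches and 48.6, 88.4 and 54.0 CPM in beta batches, and the groups overlapped (edgeR adjusted p = 0.0823).

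Ghr, the growth hormone receptor, had 44.8, 54.2 and 81.8 CPM in alpha batches, against 156, 164 and 270 CPM in beta batches (log2 difference -1.76 ± 0.28, SE; edgeR adjusted p = 3.30e-05). The remaining lower receptors were Adra2a, Egfr, Casr and Ret, of which Casr lost its call without alpha batch 3 (adjusted p = 0.0962) and Ret without any batch but beta batch 1 (adjusted p from 0.0519 to 0.149). Sstr2, a somatostatin receptor, had 93.1, 70.1 and 64.1 CPM in alpha batches, against 1.36, 0.321 and 0.774 CPM in beta batches (log2 difference 6.66 ± 0.81, SE; edgeR adjusted p = 2.86e-06). Npy1r, a receptor of neuropeptide Y and peptide YY, had 15.1, 5.46 and 7.89 CPM in alpha batches and 1.91, 0.375 and 0.387 CPM in beta batches (log2 difference 3.52 ± 1.05, SE; edgeR adjusted p = 0.0421), a call lost without any of the 6 batches but beta batch 1 (adjusted p from 0.0553 to 0.187) and with the Xist-positive beta cells left out (adjusted p = 0.171).

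Peptide ligands were divided too. Npy, neuropeptide Y, had no read in alpha batches and 512, 132 and 740 CPM in beta batches, at least 10634-fold lower in alpha cells against the floor of 3 reads (edgeR adjusted p = 0.00219). Ucn3, urocortin 3, which in adult mouse islets marks mature beta cells, had no read in alpha batches and 54.8, 107 and 45.7 CPM in beta batches, at least 1594-fold lower (edgeR adjusted p = 1.84e-07). Gast, gastrin, had 57.4, 170 and 57.3 CPM in alpha batches, against 2.53, 0.830 and 1.55 CPM in beta batches (log2 difference 6.38 ± 1.25, SE; edgeR adjusted p = 0.000844). These were the 3 of 13 neuropeptide genes that passed.

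Of 25 genes tested from a list of secreted factors, 6 were higher and 2 lower in alpha cells. Ttr, transthyretin, a thyroid hormone carrier, had 7003, 8685 and 10382 CPM in alpha batches, against 760, 447 and 301 CPM in beta batches (log2 difference 4.18 ± 0.39, SE; edgeR adjusted p = 2.01e-09). Wnt4, a Wnt ligand, had 54.9, 66.7 and 47.5 CPM in alpha batches, against 9.54, 12.6 and 6.42 CPM in beta batches (log2 difference 2.85 ± 0.55, SE; edgeR adjusted p = 0.000736). The Wnt antagonists split: Sfrp5 had 13.3, 16.3 and 28.7 CPM in alpha batches and 1.29, 1.69 and 2.09 CPM in beta batches (edgeR adjusted p = 0.00109), while Frzb had no read in alpha batches and 205, 178 and 195 CPM in beta batches, at least 4446-fold lower (edgeR adjusted p = 3.65e-07). The cell types did not overlap for these 4 genes. Gc, the vitamin D binding protein, averaged 42.0 ± 2.78 CPM in alpha cells and 6.63 ± 2.55 CPM in beta cells (SD, n = 3 each; edgeR adjusted p = 0.0145), a call lost without beta batch 1 (log2 2.39, adjusted p = 0.0972) and without beta batch 2 (log2 2.80, adjusted p = 0.0511). Tgfb2 and Fgf14 were higher and Fgf12 was lower, the last a call lost without alpha batch 2 (adjusted p = 0.0691). Fgf12 and Fgf14 are counted with this list, but their products stay inside the cell and are not secreted.

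In the machinery of exocytosis, 1 of 45 genes was higher and 5 lower, and the 2 granuphilin-family members went opposite ways. Sytl4, granuphilin, which docks granules, had 0, 0 and 0.0467 CPM in alpha batches, against 685, 459 and 577 CPM in beta batches (edgeR adjusted p = 5.14e-11). Sytl5 had 42.8, 69.5 and 53.4 CPM in alpha batches, against 12.8, 6.86 and 3.48 CPM in beta batches (log2 difference 2.85 ± 0.56, SE; edgeR adjusted p = 0.000856). Rims3, Rph3al, Sv2a and Syt13 were the other lower genes, of which Sv2a lost its call without alpha batch 1 or beta batch 2 and Syt13 without alpha batch 1 or 2 or beta batch 4 (adjusted p from 0.0749 to 0.109). With the 6 P0 batches alone Sytl4 alone passed. Of 47 ion channel genes 2 were higher and 2 lower, where 4.96% of all genes passed, and FACS-sorted batches alone gave none. Trpm5, a cation channel of the insulin response, had 1.85, 0 and 0 CPM in alpha batches, against 88.0, 56.3 and 54.6 CPM in beta batches (log2 difference -6.54 ± 1.04, SE; edgeR adjusted p = 6.88e-05). Gria2, a glutamate receptor subunit, had 26.7, 77.2 and 97.9 CPM in alpha batches, against 1.27, 2.89 and 0 CPM in beta batches (log2 difference 5.41 ± 1.18, SE; edgeR adjusted p = 0.00281), a call lost with the 6 P0 batches alone (adjusted p = 0.0870). Itpr1 was also higher and Kcnip1 also lower. Each lost its call in 5 of 6 fits without 1 batch (adjusted p from 0.0583 to 0.191). Both calls were lost with the 6 P0 batches alone (adjusted p = 0.0719 and 0.199).

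Imprinted genes and genes of the fetal program gave 6 higher and 1 lower of 24. Peg10, a paternally expressed gene derived from a retrotransposon, had 122, 227 and 267 CPM in alpha batches, against 0.411, 0 and 0.310 CPM in beta batches (log2 difference 9.35 ± 1.40, SE; edgeR adjusted p = 2.49e-05). Sgce, the imprinted gene beside it, had 66.3, 104 and 78.1 CPM in alpha batches, against 1.29, 0 and 0.155 CPM in beta batches (log2 difference 7.24 ± 0.79, SE; edgeR adjusted p = 1.70e-07). Nnat, neuronatin, also imprinted, had 5.04, 8.09 and 8.03 CPM in alpha batches, against 3200, 2309 and 3182 CPM in beta batches (log2 difference -8.78 ± 0.99, SE; edgeR adjusted p = 8.22e-08). Ndn, Peg3, Grb10 and Impact were the other higher genes, by log2 differences from 0.98 to 1.56, and the Impact call was lost without alpha batch 2 or 3 or beta batch 2 or 4 (adjusted p from 0.0583 to 0.123). The counting's strand setting is not given in the sources used here, so genes that overlap another gene are uncertain.

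None of 43 proliferation genes passed (4.96% of all genes did), while 40 of the 43 had a negative log2 difference, with a median of -2.33. That median was -1.35 without beta batch 4 and -3.82 without alpha batch 3, where 2 genes were lower. Mki67, the standard marker of dividing cells, had 6.18, 0.131 and 54.0 CPM in alpha batches and 43.7, 23.0 and 193 CPM in beta batches, and the groups overlapped (edgeR adjusted p = 0.443). Mki67 reached 100 CPM in 2 of 46 alpha cells and 8 of 71 beta cells. The 2 alpha cells came from batches 1 and 3. Of the 8 beta cells, 4 were among the 9 cells of beta batch 4, 3 among the 33 of batch 1 and 1 among the 29 of batch 2. Of the 43 genes, 12 were lower by limma on means over cells and 3 by DESeq2. Of 22 cell cycle regulators, Ccnd1, cyclin D1, alone passed, with 53.6, 78.4 and 54.0 CPM in alpha batches and 14.6, 15.5 and 9.05 CPM in beta batches (log2 difference 2.25 ± 0.51, SE; edgeR adjusted p = 0.00470), a call lost without beta batch 4 (log2 2.01, adjusted p = 0.0532).

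Beyond the lists, the largest differences among genes at 20 CPM or more in the higher group were on-off in kind. A ranking by log2 difference favours such genes. On the alpha side, Fgb, a fibrinogen chain, had 55.5, 53.3 and 70.3 CPM in alpha batches, against 0.0206, 0 and 0 CPM in beta batches (edgeR adjusted p = 5.00e-05). Serpina1b and Serpina1d, near-identical antitrypsin copies whose reads may be split, averaged 113 ± 56.9 and 74.4 ± 40.7 CPM in alpha cells and 0.158 ± 0.190 and 0.0179 ± 0.0309 CPM in beta cells (SD, n = 3 each). Kcna5, a voltage-gated potassium channel, had 11.7, 19.9 and 36.3 CPM in alpha batches and no read in beta batches, at least 747-fold higher (edgeR adjusted p = 0.000177). Corin, a protease of natriuretic peptides, Fam46d and Colgalt2, a collagen galactosyltransferase, were likewise without a read in beta batches.

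On the beta side, Fam151a had 0.461, 0 and 0 CPM in alpha batches, against 128, 129 and 101 CPM in beta batches (log2 difference -9.22 ± 0.84, SE; edgeR adjusted p = 2.75e-09). Msln, mesothelin, a cell surface protein, had no read in alpha batches and 42.2, 56.0 and 33.1 CPM in beta batches, at least 1009-fold lower in alpha cells (edgeR adjusted p = 0.00292). Crispld2 rested on 1 batch, with no read in alpha batches and 1.97, 0.241 and 70.6 CPM in beta batches, and its call was lost without beta batch 4 (adjusted p = 0.0889). Xist itself was among them, with 0.0923, 0.394 and 0.140 CPM in alpha batches and 131, 0.750 and 120 CPM in beta batches. Its call was lost with the Xist-positive cells left out, an outcome fixed by choosing those cells on Xist. Of 100 genes named by the rule that passed, 76 kept their call when any 1 of the 6 batches was left out. Calls were lost for 32 of them with the 6 P0 batches alone, 41 with FACS-sorted batches alone and 47 with hand-picked batches alone.

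**Figure D4:**
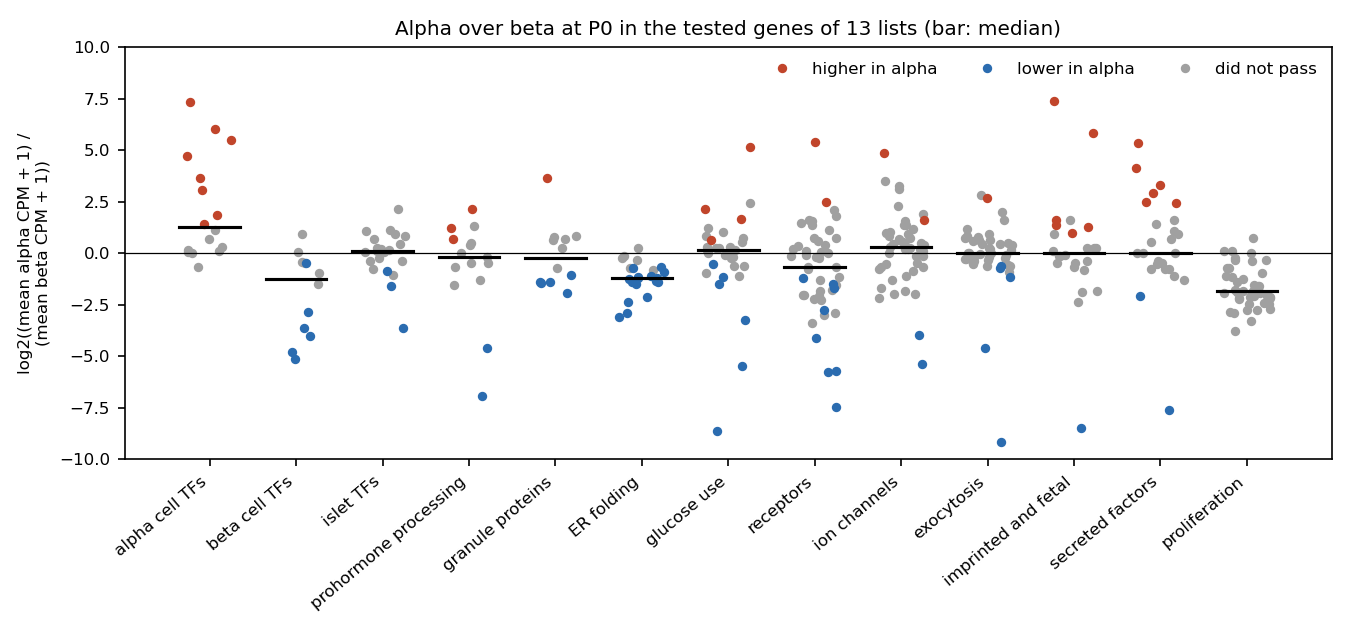
Differences of the tested genes of 13 lists as log2((mean alpha CPM + 1) / (mean beta CPM + 1)), each point a gene, red where it was higher in alpha cells and blue where it was lower by the edgeR test, grey where it did not pass, with a bar at the median on this scale, which shrinks differences of low genes. Beta cell factors and endoplasmic reticulum folding genes lie mostly below 0, alpha cell factors mostly above, and proliferation genes are all grey.

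The same comparison was made at E17.5, before birth, and at P9, with other batches. At E17.5, 1540 genes (8.31%) passed, and at P9, 1207 (6.51%). Of the 396 genes higher in alpha cells at P0, 247 were also called higher at E17.5 and 205 at P9, and of the 524 lower genes 361 were also called lower at E17.5 and 296 at P9. The difference at P0 was not shown to depart from that at E17.5 for any gene by edgeR, with 1588 genes at an unadjusted p under 0.05, while DESeq2 called 220 and limma on means over cells 254. It departed from that at P9 for 28 genes (0.151%), 15 with a more positive and 13 with a more negative value at P0. Without alpha batch 3 these were 7, without beta batch 1 they were 17 and without beta batch 4 they were 15.

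Scg3 and Pcsk1n, of granules, were among these. Scg3 had 320, 517 and 509 CPM in alpha batches, against 1333, 1111 and 1128 CPM in beta batches at P0, but averaged 1047 ± 188 CPM in alpha cells and 984 ± 94.8 CPM in beta cells at P9 (SD, n = 3 each). Pcsk1n was 2.21 higher in alpha cells on the log2 scale at P0 and 0.85 higher at P9, where it averaged 2707 ± 433 CPM in alpha cells and 1446 ± 44.4 CPM in beta cells (SD, n = 3 each). Appl2, an adaptor of signalling at endosomes, and Zfp568, a zinc finger repressor of the KRAB family, had differences of opposite sign at the 2 stages. The P0 call of Appl2 was lost without alpha batch 3 (adjusted p = 0.113), without beta batch 4 (adjusted p = 0.0884) and with the 6 P0 batches alone (adjusted p = 0.167), and that of Zfp568 with the 6 P0 batches alone (adjusted p = 0.0558). Appl2 averaged 82.7 ± 19.2 CPM in alpha cells and 43.6 ± 3.03 CPM in beta cells at P0, and 38.4 ± 10.4 CPM in alpha cells and 71.0 ± 3.16 CPM in beta cells at P9 (SD, n = 3 each). Zfp568 averaged 32.6 ± 6.87 CPM in alpha cells and 107 ± 35.1 CPM in beta cells at P0, and 79.3 ± 19.6 CPM in alpha cells and 35.2 ± 11.8 CPM in beta cells at P9 (SD, n = 3 each). Higd1a, a mitochondrial protein, averaged 69.6 ± 30.1 CPM in alpha cells and 14.6 ± 3.97 CPM in beta cells at P0, and 180 ± 19.6 CPM in alpha cells and 1.02 ± 0.994 CPM in beta cells at P9 (SD, n = 3 each). Its P0 call was lost without alpha batch 1 (log2 1.57, adjusted p = 0.137) and without beta batch 4 (log2 2.00, adjusted p = 0.0669).

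**Figure D5:**
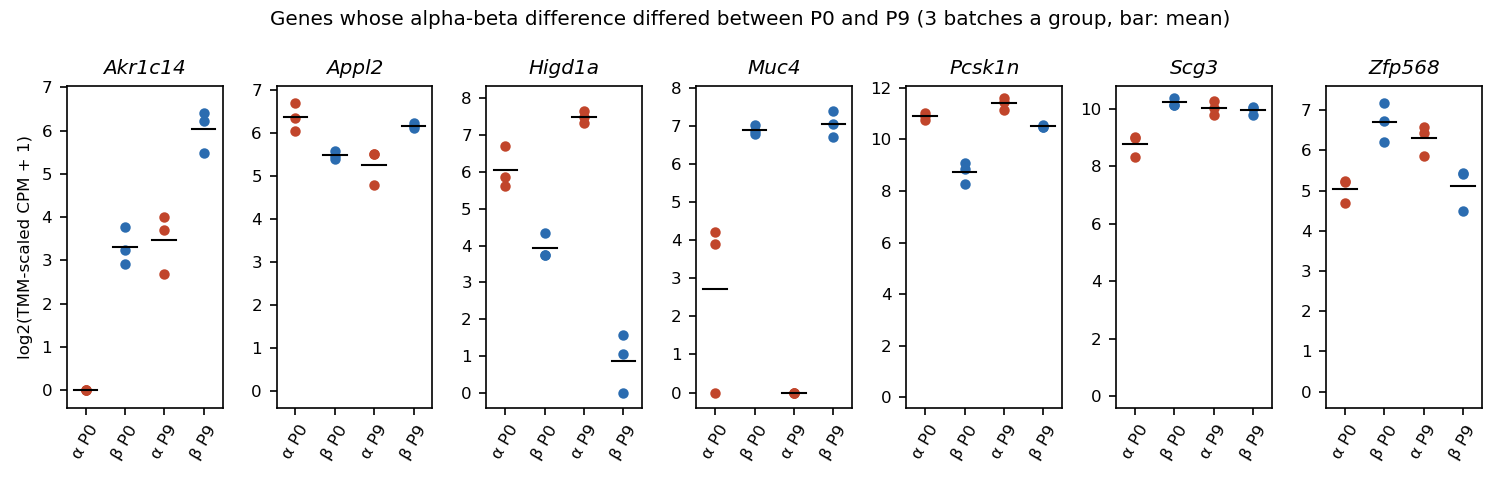
Batch levels at P0 and P9 of 7 genes whose alpha-beta difference differed between the stages, as log2(TMM-scaled CPM + 1), alpha left of beta at each stage, with a bar at the mean of 3 batches. Scg3 is lower in alpha batches at P0 and overlaps at P9, and Appl2 and Zfp568 change sides.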

How the data were processed

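Smart-seq2 libraries of single pancreatic islet cells were analysed from the table of read counts per gene that the authors deposited, 40824 gene rows and 92 ERCC rows over 917 cells. The submitters' processing notes name TopHat2 2.1.0, HTSeq 0.6.0, DESeq 1.20.0 and the builds GRCm38 and mm10, and the strand setting of the counting is not given in the sources used here. Counts of single-hormone, unselected cells were summed per labelled batch, ERCC rows left out. edgeR 4.0.16 (R 4.3.3) fitted all 45 batches of that kind, 20 alpha and 25 beta, with a term for each cell type and stage and one for collection method, TMM scaling, edgeR's default filter on low counts and the quasi-likelihood test, with 31 residual degrees of freedom. Differences are alpha over beta, called at a Benjamini-Hochberg adjusted p under 0.05. The SE of a log2 difference is its size divided by the square root of the test's F statistic. For genes at or near 0 in 1 cell type this SE is only a rough guide. All stages shared one estimate of spread, and the P0 batches alone were an alternative. Alternatives used DESeq2 1.42.0, limma 3.58.1 on log2(CPM + 1) means over cells, other filters, scalings and cell sets, and leaving out each batch.

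Genes named were the 15 largest differences in each direction at 20 CPM or more without overlap of batches, the 3 smallest p-values in each direction of each of 22 lists at 5 CPM or more, a set of known islet genes, and the 5 smallest p-values of each stage difference. Col1a2 and other genes outside this rule were named after their values were seen. The members and lists were chosen with earlier results of these data known. Multi-hormone cells (5 alpha and 4 beta at P0) and 9 enriched beta cells were left out. Promoter sequences are RefSeq's, build GRCm38.p6. Some genes that the rule or lists hold are counted with their lists and are not reported here.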

Additional observations from a re-analysis of the deposited data

Results flagged for a closer look

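The alpha-beta log2 difference at P0 departed from that at P9, by edgeR's test of the difference itself, for 7 of the named genes. Relative to P9 it was higher at P0 by 1.761 for Appl2 and by 1.362 for Pcsk1n. It stood at -1.512 for Scg3, -2.898 for Zfp568 and -5.362 for Higd1a, P0 minus P9. Muc4, a membrane mucin, gave 11.05, with 17.7, 0 and 14.0 CPM in alpha batches and 129, 110 and 117 CPM in beta batches at P0, and no read in alpha cells against 134 ± 31.4 CPM in beta cells at P9 (SD, n = 3). Akr1c14, an aldo-keto reductase, gave -8.168, with no read in alpha cells against 9.30 ± 3.15 CPM in beta cells at P0, and 10.8 ± 4.86 CPM in alpha cells against 66.8 ± 21.0 CPM in beta cells at P9 (SD, n = 3 each). Both values rest on a group at 0. By limma on means over cells the Akr1c14 value turned to 2.16 and the Muc4 value was 0.78 (adjusted p = 0.719), and with multi-hormone cells added the Akr1c14 value was -3.28 (adjusted p = 0.253). The adjusted p of the 7 ran from 0.00263 for Higd1a to 0.0447 for Pcsk1n. Without alpha batch 3 the value of Appl2 was 1.60 (adjusted p = 0.0521).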

How the results depend on the processing

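Genes higher and lower in alpha cells numbered 396 and 524, and 171 and 200 with the 6 P0 batches alone, 727 and 855 by DESeq2, 103 and 130 in FACS-sorted batches, 234 and 248 in hand-picked batches and 1254 and 887 by limma on means over cells. Leaving out 1 batch gave 211 to 360 higher and 354 to 458 lower. The difference from E17.5 had 0 genes, but 220 by DESeq2, 254 by limma on means, 171 in hand-picked batches, 10 with enriched cells added, 9 without the low-count filter, 1 each with multi-hormone cells added, without the collection term and with Xist-positive beta cells left out (chosen after seeing the data), and 0 to 23 leaving out 1 batch. The difference from P9 had 28 genes, but 298 by DESeq2, 301 by limma on means, 8 in FACS-sorted and 74 in hand-picked batches, 16 without the collection term, and 7 to 37 leaving out 1 batch. The P0 batches alone give no stage difference. A block on replicate number gave 65 higher, 125 lower and 0 genes for the difference from P9. Same-numbered batches correlated at -0.0121 and 0.0269, so the numbers were not taken to pair them. The cause of these shifts was not tested, beyond the fewer batches in some fits.

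The log2 difference of Nkx2-2, not called, was 0.13 in hand-picked batches. Sst was -1.62 in hand-picked batches, -1.13 with multi-hormone cells and ranged from -0.71 without alpha batch 1 to 1.94 without beta batch 4. Akr1c14 against P9 was 2.16 by limma on means. DESeq2 gave no adjusted p for Frzb, Gcg, P2ry1 and Pcsk1. With 9 cells, beta batch 4 limits the depth.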

Other observations

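Adhesion genes gave 2 higher and 6 lower of 38 tested, with a median log2 difference of 0.35. Cdh1, E-cadherin, which joins epithelial cells, had 78.0, 93.2 and 88.7 CPM in alpha batches, against 178, 197 and 236 CPM in beta batches (log2 difference -1.31 ± 0.25, SE; edgeR adjusted p = 0.000647). Spock1 and Spock2, testican proteoglycans of the matrix, were lower by log2 differences of -3.43 ± 0.75 and -3.99 ± 0.76 (SE). For all 3 the cell types did not overlap. The remaining lower genes were Ceacam1, Cntn1 and Robo2. Ceacam1 and Cntn1 each lost their call in 4 of 6 fits without 1 batch (edgeR adjusted p from 0.0590 to 0.127). Robo2 lost its call without alpha batch 1 (adjusted p = 0.0951). Nlgn1, a higher gene, lost its call without beta batch 1 or 4 (adjusted p = 0.0934 and 0.0799). Ncam1, the neural cell adhesion molecule, had 86.0, 73.4 and 115 CPM in alpha batches, against 36.6, 37.8 and 53.8 CPM in beta batches (log2 difference 1.11 ± 0.34, SE; edgeR adjusted p = 0.0462), a call that was lost without any of the batches but beta batch 4, with adjusted p from 0.0504 to 0.206.

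Maob, the monoamine oxidase that degrades dopamine, was the 1 lower gene of 10 of monoamine handling, where 4.96% of all genes tested passed. Maob had 75.5, 105 and 109 CPM in alpha batches, against 370, 243 and 196 CPM in beta batches (log2 difference -1.51 ± 0.27, SE; edgeR adjusted p = 0.000257). Of 15 zinc and metal genes 2 were lower, Slc30a8 and Slc30a5, and the Slc30a5 call was lost without alpha batch 2 (adjusted p = 0.141), beta batch 1 (adjusted p = 0.0819) or beta batch 2 (adjusted p = 0.0512). Slc16a10, an aromatic amino acid transporter, had 187, 260 and 359 CPM in alpha batches, against 133, 120 and 109 CPM in beta batches (log2 difference 0.98 ± 0.22, SE; edgeR adjusted p = 0.00424), a call lost without alpha batch 3 (log2 0.78, adjusted p = 0.0553) and without beta batch 4 (log2 0.78, adjusted p = 0.0740). With the 6 P0 batches alone the calls of Maob (adjusted p = 0.0766) and Slc16a10 (adjusted p = 0.130) were lost. Of 13 early stress genes, which mark handling of cells, Hspa8 alone was higher, a share of 7.69% against 4.96% of all genes tested. The Hspa8 call was lost without any batch but alpha batch 2. None of the erythroid or Schwann cell markers passed, of 5 and 3 tested.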
